A study of Homo sapiens with 18 samples.

Results

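Mitotic kinesins are motor proteins that use ATP to move along microtubules, or to take their ends apart, while a cell divides. The 10 genes described here, KIF11, KIF15, KIF18A, KIF2C, KIF4A, CENPE, KIF20A, KIF20B, KIF23 and KIF14, were chosen by name, with no threshold on measured values. Earlier results of these data were known when they were chosen. Each matched 1 row of the table, so 10 of its 60504 gene rows are described, and all 10 were among the 14936 genes with enough signal to be tested. The cells were A375, an established human melanoma line with an activating BRAF mutation. IMD-0354, known as a small-molecule blocker of IKKβ, a kinase of NF-κB signalling, was given at 0.32, 0.63 or 1.25 µM over 24 h or at 0.63 µM over 48 h, and each time had its own untreated cells. Each of these 6 groups had 3 libraries, 18 in all, made by 3' end RNA sequencing of total RNA. No vehicle is named for the untreated cells, all groups come from 1 cell line, and the labels do not say whether replicates were grown separately. The p-values below therefore measure the spread between these libraries, which may be technical only.

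Levels are given in TPM, a unit that is divided by transcript length and scaled to a fixed total per library. It holds no read counts, so the depth behind each value is unknown, and a library had 14647 to 17029 genes above 0. Of 9 melanoma and melanocyte markers, 7 reached 1 TPM in a library, and the summed level of the 9 ran from 35.6 to 98.1 TPM. Most of it came from PRAME, SOX10 and MITF, with means of 31.2, 19.1 and 11.3 TPM over the 18 libraries. MLANA, S100B, S100A1, DCT and PMEL each had a mean under 1 TPM. SOX10, a neural crest factor, was present in all libraries (8.29 to 34.7 TPM), whereas TYR, the pigment enzyme tyrosinase, was at 0 in all 18. None of the 5 blood cell, 4 endothelial and 6 fibroblast markers reached 1 TPM, and 2 of 5 keratinocyte markers did. The summed keratinocyte level ran from 27.8 to 103 TPM, almost wholly through KRT10. The 3 untreated libraries at 24 h were unequal: replicate 2 was the highest of its group for 9 of the 10 kinesins, against 36.8% of all tested genes for which it was the highest. Several results below moved when it was left out, and for part of them the values without it are given.

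Most of these motors walk towards the plus end of microtubules. KIF11 cross-links antiparallel microtubules and pushes the spindle poles apart, and KIF15 helps to hold the bipolar spindle. CENPE carries chromosomes to the spindle equator from the kinetochore, KIF18A dampens their oscillation there, KIF2C is a centromeric depolymerase that removes faulty attachments, and KIF4A is a chromokinesin that also limits the length of midzone microtubules. KIF23 forms the centralspindlin complex, KIF20A brings the chromosomal passenger complex to the midzone, and KIF14 and KIF20B act in the last steps of cytokinesis. Genes of this kind are transcribed mostly in the G2 and M phases, under the DREAM and MuvB complexes with MYBL2 and FOXM1, through a promoter element called the cell cycle genes homology region (CHR), often near CCAAT boxes bound by the factor NF-Y.

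The promoter windows of all 10 members, from 250 bases before to 50 bases after the gene start of RefSeq (GRCh38.p14), were searched for the CHR letters TTTGAA, the variant TTTAAA and the pentamer CCAAT on both strands. Stretches from 100 bases before to 10 bases after the start are shown for the 4 members with the largest and the smallest change at 1.25 µM, since these are the extremes of the response described below. They are written 5′ to 3′ along the gene, and capitals mark matches to any of the 3 motifs in either orientation, so that ATTGG is CCAAT on the other strand.
KIF20A, chr5:138179012-138179121, plus strand: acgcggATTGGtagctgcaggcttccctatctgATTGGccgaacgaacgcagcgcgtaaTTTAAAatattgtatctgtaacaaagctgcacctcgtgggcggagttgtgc
KIF23, chr15:69414249-69414358, plus strand: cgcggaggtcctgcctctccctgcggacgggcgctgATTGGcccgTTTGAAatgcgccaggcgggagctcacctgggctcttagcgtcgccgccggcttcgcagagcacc
KIF2C, chr1:44739737-44739846, plus strand: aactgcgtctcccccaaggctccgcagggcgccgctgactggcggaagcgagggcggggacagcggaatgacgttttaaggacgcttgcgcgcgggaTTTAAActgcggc
CENPE, chr4:103198334-103198443, minus strand: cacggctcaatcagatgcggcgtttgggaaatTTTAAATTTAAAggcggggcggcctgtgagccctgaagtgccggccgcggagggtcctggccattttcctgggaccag
In KIF20A the variant hexamer lay 41 to 36 bases before the start, behind a pair of inverted CCAAT pentamers. KIF23 had TTTGAA 55 to 50 bases before the start, shortly after an inverted CCAAT at positions -64 to -60, and a TTTAAA further upstream, outside the stretch shown. KIF2C held a single TTTAAA across the start and no CCAAT, and CENPE held TTTAAA in tandem from position -68 to -57, with another copy further upstream and no CCAAT.

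A hexamer, TTTGAA or TTTAAA, was in 10 of 10 kinesin windows, against 15.6% of 10093 windows of tested genes and 24.3% of all 27305 windows. TTTGAA was in 7 of the 10 (9.61% of tested genes), TTTAAA in 5 (7.46%) and CCAAT in 7 (37.3%). KIF20A, KIF2C and CENPE had TTTAAA only, and KIF2C, KIF15 and CENPE had no CCAAT. The copy nearest to the start began upstream of it in 8 members and downstream in 2, KIF14 and KIF20B, with first positions from -62 in CENPE to 25 in KIF20B. Of 21 transport and signalling kinesin genes with a window, tested or not, 2 held a hexamer, and of 21 spindle and midzone partners 15 did. RefSeq and GENCODE place some starts differently: the KIF20A gene starts at 138178719 on chromosome 5 in GENCODE release 29, upstream of the stretch above. These matches describe letters in a window and do not show binding.

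**Figure D1:**
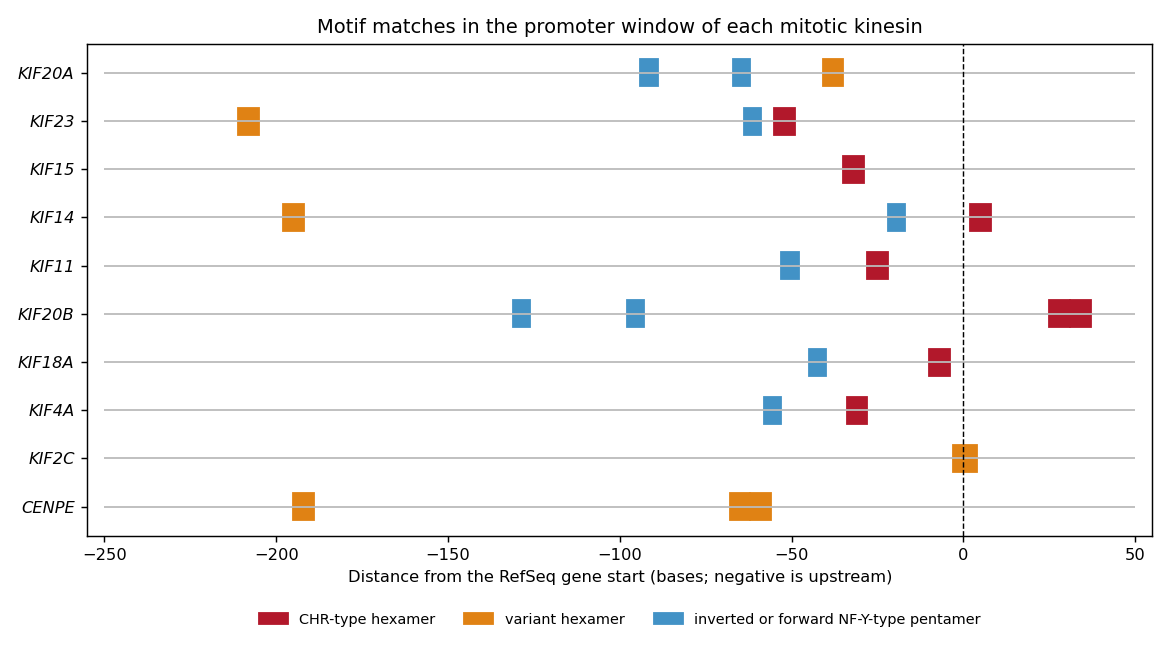
Motif matches in the promoter windows of the 10 mitotic kinesins, by distance in bases from the RefSeq gene start (dashed line, negative is upstream). Rows follow the size of the fall at 1.25 µM, largest at the top; each row has at least 1 hexamer (red or orange), and KIF15, KIF2C and CENPE have no blue CCAAT box.

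In untreated cells the most abundant kinesin transcripts were those of KIF20B, KIF15 and KIF23. At 48 h, where the untreated libraries lay close together, KIF20B stood at 59.1 ± 2.06 TPM (SD, n = 3), KIF15 at 55.7 ± 12.4, KIF23 at 42.0 ± 1.14, KIF2C at 25.1 ± 2.48, CENPE at 21.8 ± 2.21, KIF4A at 21.4 ± 2.42, KIF11 at 18.9 ± 0.80, KIF20A at 15.8 ± 3.99, KIF14 at 12.7 ± 0.86 and KIF18A at 7.73 ± 1.76. Neighbours from KIF2C to KIF14 in this order, and KIF20B and KIF15, differed by less than the sum of their SDs. TPM divides by transcript length, which 3' end libraries do not need, so the order between genes is on that scale only. Untreated cells at 48 h and 24 h did not differ in any member by limma, a linear model with moderated variances fitted to log2(TPM + 1) of all tested genes: 0 of 10 were called at an adjusted p under 0.05, 0 had an unadjusted p under 0.05, and 0.0134% of all tested genes were called lower. The changes with time ran from -0.33 for KIF20A to 0.13 for KIF2C on the log2 scale, and the groups overlapped for all 10. Of 14936 tested genes, 1142 lay wholly lower and 727 wholly higher at 48 h, and 1181 had an unadjusted p under 0.05.

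After 24 h at 1.25 µM, transcripts of 9 of the 10 mitotic kinesins fell, and CENPE alone did not pass the test. The median change over the 10 was -1.71 on the log2(TPM + 1) scale, beside -0.01 over all genes tested. At the same threshold, a Benjamini-Hochberg adjusted p under 0.05 in limma, 6.36% of the tested genes were lower and 4.94% higher. For 9 members every treated library lay below every untreated one, which held for 13.7% of tested genes. The summed level of the 10 was 332 ± 124 TPM (SD, n = 3) in untreated cells and 97.0 ± 23.6 at 1.25 µM, with lowest untreated and highest treated libraries of 252 and 113 TPM. Untreated replicate 2 stood at 474 TPM, and replicates 1 and 3 at 269 and 252. In bulk RNA, fewer cells in G2 and mitosis and less RNA per cell cannot be told apart.

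**Figure D2:**
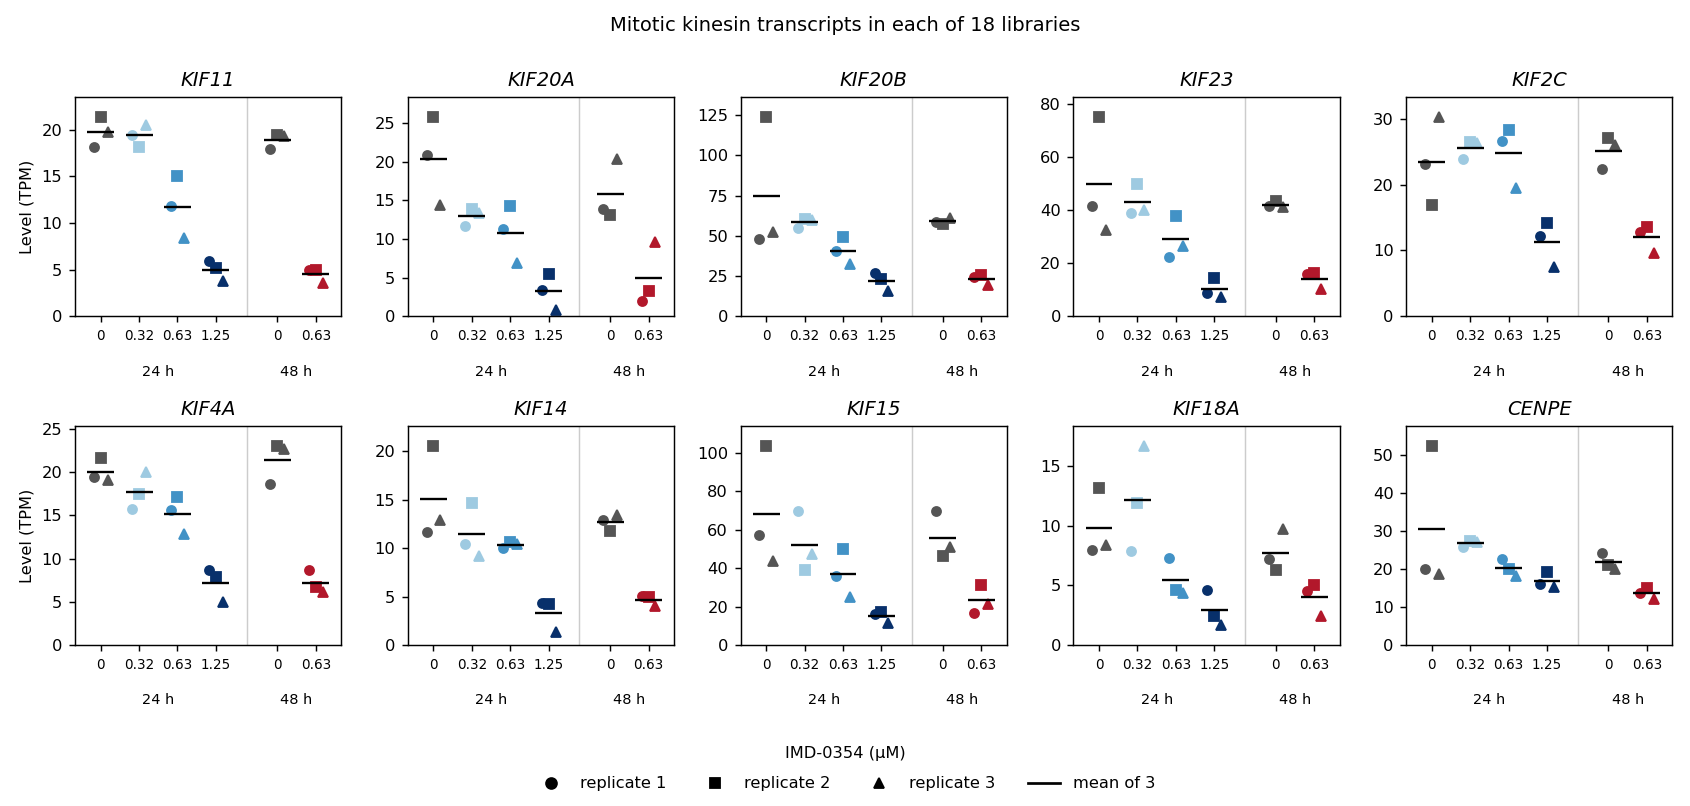
Level of each mitotic kinesin in TPM (linear axes from 0) in all 18 libraries, by IMD-0354 dose in µM at 24 h (left of the grey line) and 48 h (right); shapes are replicates and bars the mean of 3. At 1.25 µM the 3 libraries lie below all 3 untreated ones for every gene except CENPE, and untreated 24 h replicate 2 (square) stands high for KIF20B, KIF23, KIF15 and CENPE.

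Both motors of spindle bipolarity were strongly lower. KIF11 (ENSG00000138160, chr10:92593286-92655395, plus strand, GRCh38) measured 18.2, 21.4 and 19.8 TPM in untreated libraries at 24 h, 19.5, 18.2 and 20.6 at 0.32 µM, 11.8, 15.0 and 8.42 at 0.63 µM, and 5.95, 5.24 and 3.77 at 1.25 µM. The lowest dose overlapped the untreated libraries, and the middle and highest doses lay wholly below them and apart from each other. At 1.25 µM KIF11 fell by 1.81 on the log2 scale (SE 0.216, adjusted p = 7.14e-05 in limma), to 28.5% of the untreated value of TPM + 1. KIF15 (ENSG00000163808, chr3:44761717-44873376, plus strand) measured 57.5, 104 and 43.9 TPM untreated, 70.0, 39.2 and 47.3 at 0.32 µM, 36.1, 50.2 and 25.3 at 0.63 µM, and 16.3, 17.1 and 11.4 at 1.25 µM. It fell by 2.05 (SE 0.333, adjusted p = 0.00104 in limma), and the untreated group, unlike that of KIF11, spread widely, with replicate 2 the highest.

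The motors of chromosome alignment differed more among themselves. KIF18A (ENSG00000121621, chr11:28020620-28108308, minus strand), the least abundant member, measured 7.98, 13.1 and 8.40 TPM untreated, 7.85, 11.9 and 16.7 at 0.32 µM, 7.30, 4.63 and 4.33 at 0.63 µM, and 4.58, 2.48 and 1.72 at 1.25 µM. It fell by 1.5 at the highest dose (SE 0.339, adjusted p = 0.00927 in limma), and without replicate 3 of 1.25 µM the adjusted p was 0.0520. KIF4A (ENSG00000090889, chrX:70290090-70420832, plus strand) was among the tightest genes, at 19.4, 21.6 and 19.1 TPM untreated, 15.8, 17.5 and 20.0 at 0.32 µM, 15.6, 17.1 and 12.9 at 0.63 µM, and 8.72, 7.90 and 5.04 at 1.25 µM. It fell by 1.38 (SE 0.211, adjusted p = 0.000615 in limma). KIF4B, a gene nearly identical to KIF4A, had a mean of 0.029 TPM, so little signal was assigned to it.

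KIF2C (ENSG00000142945, chr1:44739818-44767767, plus strand) was flat until the highest dose, with 23.2, 16.9 and 30.2 TPM untreated, 23.9, 26.4 and 26.3 at 0.32 µM, 26.6, 28.2 and 19.4 at 0.63 µM, and 12.2, 14.2 and 7.51 at 1.25 µM. At 24 h only the highest dose lay below the untreated libraries. KIF2C fell by 1.00 there (SE 0.247, adjusted p = 0.0159 in limma), the smallest change among the 9 called members. The call was lost without untreated replicate 3 (adjusted p = 0.0599) or without replicate 3 of 1.25 µM (adjusted p = 0.0810). It was also the single member for which untreated replicate 2 was the lowest of its group, at 0.634 of the mean of the other libraries.

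CENPE (ENSG00000138778, chr4:103105806-103198409, minus strand) measured 20.1, 52.3 and 18.7 TPM untreated, 25.7, 27.3 and 27.1 at 0.32 µM, 22.7, 20.0 and 18.1 at 0.63 µM, and 16.0, 19.1 and 15.3 at 1.25 µM. The highest treated library lay between the untreated ones, and untreated replicate 2 was 2.7 times the mean of the other untreated libraries. The change at 1.25 µM was -0.66 (SE 0.28, interval at 95% from -1.26 to -0.07, adjusted p = 0.144 in limma) and did not pass the test. Without untreated replicate 2 it was -0.20 (adjusted p = 0.545). Levels of CENPE in the remaining untreated libraries and in the treated ones thus lay close together.

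All 4 motors of midzone and cytokinesis fell. KIF20A (ENSG00000112984, chr5:138178719-138187715, plus strand) measured 20.9, 25.8 and 14.4 TPM untreated, 11.7, 13.9 and 13.4 at 0.32 µM, 11.3, 14.3 and 6.87 at 0.63 µM, and 3.37, 5.45 and 0.88 at 1.25 µM. It was lower than untreated in every treated library of every dose, and at 1.25 µM it fell by 2.47 (SE 0.457, adjusted p = 0.00263 in limma), the largest change and the largest error of the 10. The 3' end of KIF20A is covered on the opposite strand by CDC23, at a mean of 19.8 TPM. Whether counting used strand is not given in the sources used here, so reads of the 2 genes may not be fully separated.

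KIF23 (ENSG00000137807, chr15:69414246-69448427, plus strand) measured 41.6, 75.1 and 32.4 TPM untreated, 38.9, 49.9 and 40.1 at 0.32 µM, 22.5, 37.8 and 26.7 at 0.63 µM, and 8.83, 14.3 and 7.48 at 1.25 µM. It fell by 2.14 at the highest dose (SE 0.295, adjusted p = 0.000285 in limma), to 22.8% of the untreated TPM + 1. KIF14 (ENSG00000118193, chr1:200551497-200620734, minus strand) measured 11.7, 20.5 and 12.9 TPM untreated, 10.5, 14.7 and 9.18 at 0.32 µM, 9.97, 10.6 and 10.4 at 0.63 µM, and 4.34, 4.29 and 1.34 at 1.25 µM, where it fell by 1.95 (SE 0.298, adjusted p = 0.000634 in limma). KIF14 thus lay just under the untreated range at the middle dose and well apart from it at the highest. KIF20B (ENSG00000138182, chr10:89701610-89774939, plus strand) measured 48.2, 124 and 52.5 TPM untreated, 54.9, 60.4 and 59.7 at 0.32 µM, 40.3, 49.4 and 32.2 at 0.63 µM, and 27.2, 23.3 and 15.6 at 1.25 µM. It fell by 1.62 (SE 0.291, adjusted p = 0.00213 in limma), and by 1.19 without untreated replicate 2 (adjusted p = 0.00361).

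Without untreated replicate 2, the 9 called members kept their calls at 1.25 µM, with changes from -2.29 for KIF20A to -1.19 for KIF20B. Replicate 3 of 1.25 µM was the lowest library of its group for all 10 members, against 39.0% of tested genes. Leaving out each of the 6 libraries of this comparison in turn, 7 to 9 members remained called, and KIF11, KIF15, KIF4A, KIF20A, KIF20B, KIF23 and KIF14 were called each time. When only the 6 libraries compared were fitted, so that the spread was no longer shared with the other groups, KIF11 alone passed, and the 8 members lost had adjusted p from 0.0664 to 0.174 with unchanged log2 values.

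After 48 h at 0.63 µM, 8 of the 10 kinesins fell, and KIF18A and CENPE did not pass the test. In all 10 the 3 treated libraries lay below the 3 untreated ones, which was so for 21.3% of tested genes. In limma 5.68% of tested genes were called lower and 1.95% higher, and the median change was -1.30 over the 10 members and -0.15 over all tested genes. With the scaling that sets the latter to 0 (median of ratios), 6 of the 8 members were called. The summed level of the 10 was 280 ± 10.2 TPM in untreated cells and 112 ± 14.4 TPM after exposure (SD, n = 3).

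KIF11 had the largest change at 48 h, from 18, 19.5 and 19.3 TPM in untreated libraries to 4.97, 5.01 and 3.62 TPM in treated ones, with a gap between the groups far wider than either group. It fell by 1.86 (SE 0.216, adjusted p = 8.02e-05 in limma). KIF4A measured 18.6, 23.0 and 22.6 TPM untreated and 8.67, 6.69 and 6.12 treated, and fell by 1.46 (adjusted p = 0.000498 in limma). KIF23 measured 41.6, 43.3 and 41.2 TPM against 15.8, 16.3 and 10.4, and fell by 1.53 (adjusted p = 0.00463 in limma). These 3 genes, which span the pole, chromosome arm and midzone motors, were the members called in each of the 6 fits that left out a library.

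KIF20B measured 58.7, 57.3 and 61.4 TPM untreated and 24.5, 25.7 and 19.4 treated at 48 h (adjusted p = 0.0102 in limma for a fall by 1.32). KIF2C measured 22.3, 27.0 and 26.0 against 12.8, 13.6 and 9.62 TPM (fell by 1.01, adjusted p = 0.0178 in limma). KIF14 measured 12.9, 11.8 and 13.5 against 5.1, 5.0 and 4.0 TPM (fell by 1.27, adjusted p = 0.0149 in limma). In these 3 genes the groups stood well apart. The calls of KIF2C and KIF14 were each kept in 3 of the 6 leave-one-out fits, and that of KIF20B in 5.

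KIF20A and KIF15 were noisier at 48 h. KIF20A measured 13.9, 13.1 and 20.4 TPM untreated and 1.96, 3.31 and 9.58 treated, so replicate 3 stood high in both groups, and it fell by 1.69 (SE 0.457, adjusted p = 0.0327 in limma). KIF15 measured 69.8, 46.3 and 51.1 TPM against 17.0, 31.4 and 21.4, and fell by 1.24 (SE 0.333, adjusted p = 0.0302 in limma). Both calls were kept in 1 of 6 leave-one-out fits and were lost with median-of-ratios scaling (adjusted p = 0.0636 and 0.0650), with quantile normalization and without a filter on low values. The KIF20A call was also lost with a pseudocount of 0.1 TPM (adjusted p = 0.0513) and with only the compared groups fitted (adjusted p = 0.0965). KIF18A measured 7.23, 6.28 and 9.69 TPM untreated and 4.52, 5.05 and 2.43 treated (change -0.83, SE 0.339, adjusted p = 0.163 in limma). CENPE measured 24.3, 21.1 and 20.0 TPM against 13.7, 15.0 and 12.03 (change -0.65, SE 0.28, adjusted p = 0.193 in limma). The CENPE groups did not overlap here and their spread was small, and with library weights the adjusted p was 0.0227.

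Lower doses at 24 h gave no called member. At 0.63 µM the median change over the 10 was -0.72, and limma called 0 members lower, beside 0.824% of all tested genes. An unadjusted p under 0.05 was found in 5 members (KIF11, KIF20B, KIF23, KIF15 and KIF18A) and in 2672 of 14936 tested genes in either direction. KIF11 came nearest to a call, at -0.73 (SE 0.216, adjusted p = 0.0865), and the other members ran from -0.87 for KIF20A to 0.09 for KIF2C. Without untreated replicate 2 limma again called 0 members, and the changes were smaller in KIF20B (-0.32, adjusted p = 0.557), KIF23 (-0.36, adjusted p = 0.610) and KIF15 (-0.48, adjusted p = 0.553). In 5 members, KIF11, KIF20A, KIF4A, KIF14 and KIF18A, the groups did not overlap, against 9.26% of tested genes. At 0.32 µM limma called 0 members, beside 0.0201% of tested genes called lower. An unadjusted p under 0.05 was found in 0 members and in 912 of 14936 tested genes in either direction. The changes there ran from -0.57 for KIF20A to 0.25 for KIF18A with a median of -0.15, and KIF20A alone did not overlap with the untreated libraries, against 4.59% of tested genes.

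**Figure D3:**
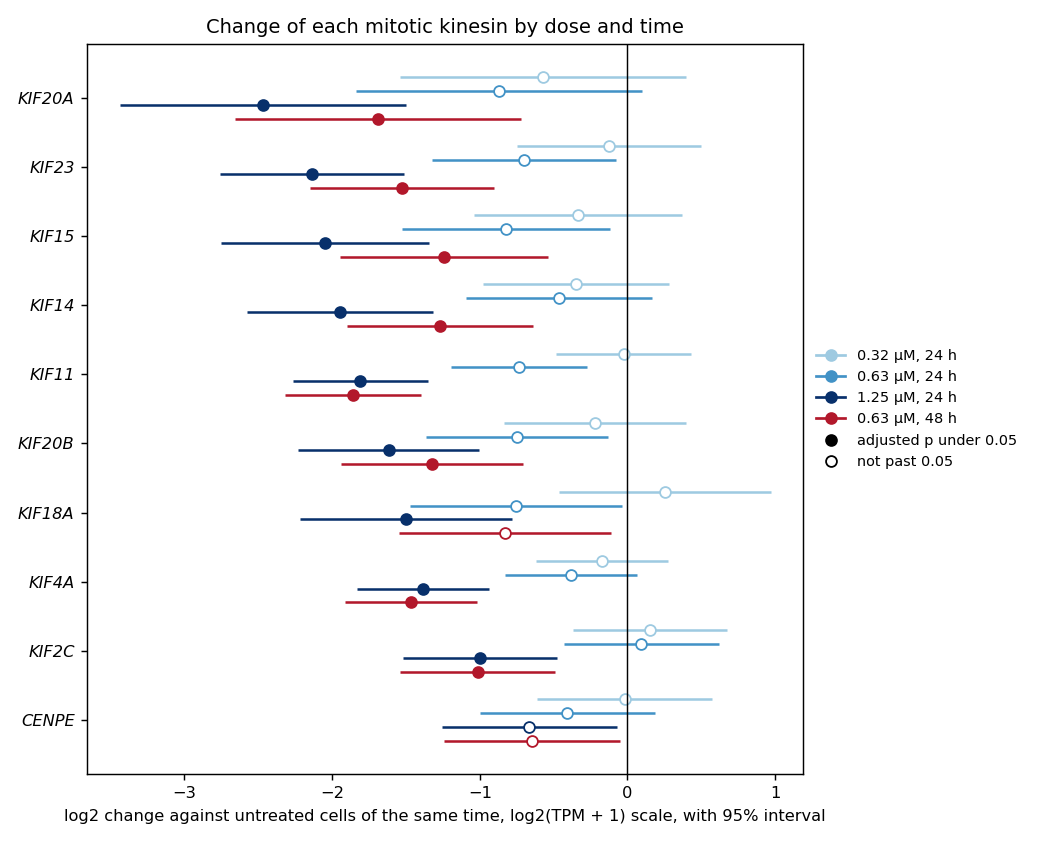
Change of each mitotic kinesin against untreated cells of the same time, in log2(TPM + 1) units with intervals at 95% from the limma fit; colours are dose and time, and filled points passed an adjusted p of 0.05. The filled points are 9 at 1.25 µM and 8 at 48 h, and the 0.32 µM intervals all include 0.

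From 0.63 to 1.25 µM, 5 members fell further: KIF14 by 1.49 (SE 0.298, adjusted p = 0.0193), KIF23 by 1.44 (SE 0.295, adjusted p = 0.0234), KIF2C by 1.09 (SE 0.247, adjusted p = 0.0371), KIF11 by 1.08 (SE 0.216, adjusted p = 0.0193) and KIF4A by 1.00 (SE 0.211, adjusted p = 0.0271), all in limma. The median over the 10 was -1.08, and 1.04% of tested genes were called lower. In 8 members every 1.25 µM library lay below every 0.63 µM library, against 11.1% of tested genes. The number of members called by limma, 5 with all libraries, moved with single libraries. It was 0 when 0.63 µM replicate 2 or 1.25 µM replicate 3 was left out, and 1 on leaving out 0.63 µM replicate 1. It was 3 on leaving out 0.63 µM replicate 3 or else replicate 1 of 1.25 µM. From 0.32 to 0.63 µM limma called 0 members, with a median of -0.44, beside 0.154% of tested genes called lower. An unadjusted p under 0.05 was found in 2 members, KIF11 and KIF18A, and in 2082 of 14936 tested genes in either direction. That count of 2 does not set the members apart.

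The same 0.63 µM was set side by side at 2 times. The difference between the change at 48 h and that at 24 h was negative for all 10 members, with a median of -0.81 beside -0.17 over all tested genes, but limma called 0 of the 10 and 0.0201% of tested genes. KIF11 (-1.12, SE 0.306, adjusted p = 0.150), KIF2C (-1.11, SE 0.349, adjusted p = 0.215) and KIF4A (-1.08, SE 0.298, adjusted p = 0.154) had an unadjusted p under 0.05. Such a p was found in 1784 of 14936 tested genes in either direction. KIF18A differed least, at -0.07 with an interval from -1.09 to 0.94. A longer exposure was therefore not shown to change any member by more than the shorter one at this threshold.

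The 1.25 µM comparison at 24 h and the 0.63 µM comparison at 48 h share no library. Across the 10 genes, which are not independent replicates, their changes had Pearson's r of 0.729 and Spearman's rho of 0.636, given as a description. KIF11 (-1.81 and -1.86), KIF4A (-1.38 and -1.46), KIF2C (-0.996 and -1.01) and CENPE (-0.66 and -0.65) had nearly equal changes in both. KIF20A, KIF23, KIF15, KIF14 and KIF18A had larger changes at 1.25 µM, by between 0.61 and 0.80 on the log2 scale, differences that were not tested, and KIF20B lay between these sets (-1.62 and -1.32). Without untreated 24 h replicate 2, the 1.25 µM change was -0.20 for CENPE, no longer near its 48 h value, and -1.19 for KIF20B. For KIF20A, KIF23, KIF15, KIF14 and KIF18A it was -2.29, -1.80, -1.71, -1.72 and -1.29, all nearer to the 48 h changes. KIF11 was at -1.76, KIF4A at -1.33 and KIF2C at -1.20.

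**Figure D4:**
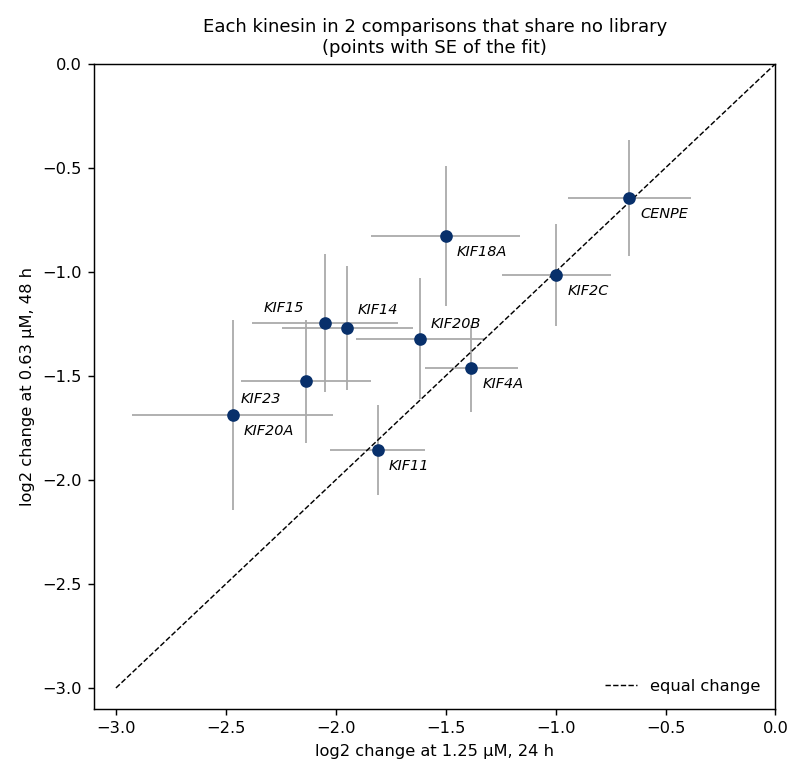
Log2 change of each mitotic kinesin at 1.25 µM for 24 h (x axis) against 0.63 µM for 48 h (y axis), each against untreated cells of its time, with the SE of the limma fit as bars. KIF11, KIF4A, KIF2C and CENPE lie at the dashed line of equal change, and KIF20A, KIF23, KIF15, KIF14 and KIF18A lie above it. The x values include untreated 24 h replicate 2, without which CENPE was at -0.20.

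The mix of motors was not the same in all groups. CENPE made up 8.63% of the summed TPM of the 10 members in untreated cells at 24 h and 17.8% at 1.25 µM, and 7.78% and 12.2% without and with 0.63 µM at 48 h (means of 3 libraries). KIF20A went from 6.30% to 3.07% at 24 h, and KIF23 from 14.7% to 10.5%. Over the 18 libraries, the log2 level of KIF20B (r = 0.969), KIF23 (0.963), KIF11 (0.961), KIF4A (0.955) and KIF14 (0.952) followed the mean of the other 9 members most closely, and CENPE (0.772) and KIF2C (0.834) least. These correlations contain the differences between groups and carry no test.

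Kinesins outside mitosis served as a comparison. The list of transport and signalling kinesins, which carry organelles and cilia cargo, also holds light chains and an associated subunit. Of its 21 tested genes, limma called 2 lower and 0 higher at 1.25 µM, with a median of -0.09. Of all tested genes 6.36% were lower and 4.94% higher, so these counts do not set the list apart. KIF3A, a motor of cilia, had 34.2 ± 13.1 TPM untreated and 14.4 ± 3.76 at 1.25 µM (SD, n = 3) and fell by 1.16 (adjusted p = 0.0144), a call lost without untreated replicate 2 (adjusted p = 0.0613), where KIF21A was instead called higher (1.05, adjusted p = 0.00348). KIF5B, the conventional kinesin heavy chain, fell by 0.76 (adjusted p = 0.00785). At 48 h the list had 1 member lower and 0 higher, KIF9 (-0.85, adjusted p = 0.0216), and KIF3A and KIF5B were at -0.03 and -0.14. Of all tested genes 5.68% were lower and 1.95% higher there.

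Of 7 other kinesins of cell division, 4 were tested and 2 fell at 1.25 µM (median -0.71), beside 6.36% of all tested genes. KIFC1, a minus-end motor that clusters spindle poles, had 14.8 ± 3.06 TPM untreated and 4.48 ± 2.58 at 1.25 µM (SD, n = 3), and fell by 1.63 (SE 0.416, adjusted p = 0.0185 in limma). KIF2A, a depolymerase at the poles, fell by 0.94 (SE 0.197, adjusted p = 0.00566 in limma). At 48 h KIFC1 alone passed, falling by 1.77 (adjusted p = 0.0151 in limma), beside 5.68% of all tested genes called lower. KIF18B and KIF22 were tested and not called in either comparison, KIF4B and KIF24 were below the filter, and KIF2B was at 0 in all 18 libraries. Without untreated replicate 2 the count at 1.25 µM was 3, with KIF22 added (-0.89, adjusted p = 0.0271).

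Transcripts of most proteins that work with these motors were lower too. Of 26 spindle and midzone partners, limma called 20 lower and 0 higher at 1.25 µM (median -1.46) and 17 lower and 0 higher at 48 h (median -1.22), and 17 at 1.25 µM without untreated replicate 2. Of all tested genes, 6.36% were called lower at 1.25 µM and 5.68% at 48 h. ANLN, which links actin to the cleavage furrow, had 112 ± 35.7 TPM untreated and 20.4 ± 12.1 at 1.25 µM (SD, n = 3) and fell by 2.51 (adjusted p = 0.000102). AURKA, a kinase of the spindle poles that TPX2 activates, fell by 2.25 (adjusted p = 0.000874), CENPF, a kinetochore protein, by 2.08 (adjusted p = 0.00168), and NUSAP1, a spindle microtubule bundler, by 1.90 (adjusted p = 1.73e-05). Without untreated replicate 2 the changes were -2.27 for ANLN, -1.96 for AURKA, -1.64 for CENPF and -1.71 for NUSAP1, all still called. At 0.63 µM for 24 h 4 partners were called lower, beside 0.824% of all tested genes: PRC1, BIRC5, ECT2 and NUSAP1. Their values at 0.63 µM without untreated replicate 2 are not given here. At 1.25 µM without it, PRC1 and NUSAP1 were called lower in limma. BIRC5 (-1.05, adjusted p = 0.0691) and ECT2 (-0.61, adjusted p = 0.157) were not.

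Transcriptional regulators of the G2/M programme moved in both directions. Of 23, limma called 5 lower and 2 higher at 1.25 µM, and 5 lower and 1 higher at 48 h, with medians of -0.37 and -0.54. Of all tested genes, 6.36% and 5.68% were called lower, and 4.94% and 1.95% higher. MYBL2, the MuvB partner, had 34.0 ± 10.7 TPM untreated and 7.52 ± 3.62 at 1.25 µM (SD, n = 3), and fell by 2.09 (adjusted p = 0.00123). It had 35.5 ± 6.53 TPM at 48 h untreated and 5.84 ± 2.19 treated, and fell by 2.46 there (adjusted p = 0.000414). E2F1 fell by 1.77 (adjusted p = 0.00360) and FOXM1, at 3.81 ± 1.82 TPM untreated and 0.87 ± 0.98 at 1.25 µM, by 1.44 (adjusted p = 0.0269). RBBP4 and TFDP1 were the others called lower in both comparisons, and E2F7, a repressor of the E2F family, rose in both, by 1.39 and 1.44. CDKN1A, the p21 inhibitor of cyclin-dependent kinases, rose by 1.95 at 1.25 µM (adjusted p = 0.00698), from 16.4 ± 10.5 to 62.8 ± 34.9 TPM, and had a change of 1.15 at 48 h (adjusted p = 0.116). Of 18 of these regulators with a window, 3 held a hexamer.

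Of 21 tested genes of tubulins, which form the tracks of these motors, and of microtubule-binding proteins, limma called 5 lower and 0 higher at 1.25 µM and 6 lower and 0 higher at 48 h (medians -0.36 and -0.50). Of all tested genes, 6.36% and 5.68% were called lower, and 4.94% and 1.95% higher. STMN1, which sequesters tubulin dimers, had 346 ± 78.3 TPM untreated and 106 ± 10.5 at 1.25 µM (SD, n = 3), and fell by 1.68 (adjusted p = 7.12e-06). TUBB3 fell by 1.23 (adjusted p = 0.0221), TUBB6 by 0.98 (adjusted p = 0.0118) and TUBA1C by 0.79 (adjusted p = 0.0167), and DYNC1I2, a dynein intermediate chain, was the fifth called. The TUBB3 groups overlapped, and without untreated replicate 2 its change was -1.72 (adjusted p = 0.000348 in limma). Without untreated replicate 2 limma called 6 lower and 1 higher: DYNC1I2 lost its call (change -0.53, adjusted p = 0.0930), the beta-tubulins TUBB (-1.11) and TUBB4B (-1.61) gained one, TUBB6 was at -0.63 (adjusted p = 0.0258), and DYNC1H1, the dynein heavy chain, was called higher (change 1.16, adjusted p = 0.0116). The mitotic kinesins thus had a median change of -1.71 and this mixed list of -0.36 at this dose, without a test of the difference. Besides tubulins the list holds other microtubule-binding proteins and dynein subunits, so its median is not that of the tracks alone.

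**Figure D5:**
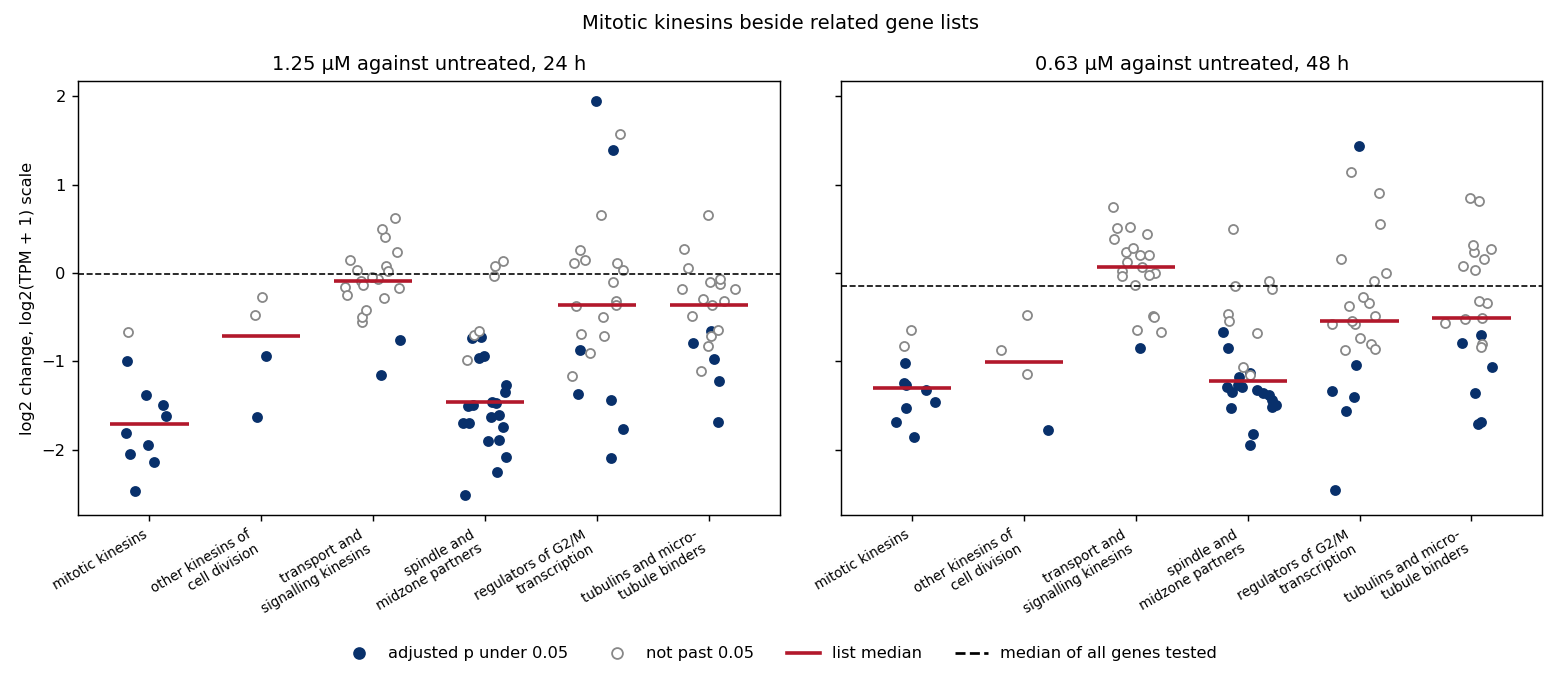
Log2 change of every tested gene of 6 lists at 1.25 µM for 24 h (left) and 0.63 µM for 48 h (right), on the log2(TPM + 1) scale; filled points passed an adjusted p of 0.05, red bars are list medians and the dashed line is the median of all genes tested. The medians of the mitotic kinesins (-1.71 and -1.30) and of the spindle and midzone partners (-1.46 and -1.22) lie low, and that of the transport and signalling kinesins (-0.09 and 0.07) lies near 0.

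Among 7620 genes outside the members with a mean of at least 5 TPM, the 8 whose log2 level over the 18 libraries was most like the mean of the members were ASPM (r = 0.975), CDCA8 (0.973), LMNB1 (0.971), TOP2A (0.970), PRC1 (0.968), TPX2 (0.966), GTSE1 (0.964) and CACYBP (0.964). ASPM organises spindle poles, CDCA8 is a subunit of the chromosomal passenger complex, PRC1 bundles midzone microtubules and TPX2 nucleates them around chromosomes. LMNB1 is a nuclear lamin and TOP2A the topoisomerase that untangles sister chromatids. Their changes at 1.25 µM ran from -2.18 for GTSE1 to -1.02 for CACYBP.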

How the data were processed

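The deposited file is a single matrix of the authors' TPM values, 60504 Ensembl identifiers by 18 libraries, and its columns sum to between 999999.1 and 1000000.5. The tools named in the submitters' processing notes are cutadapt 1.18, STAR 2.7, RSEM 1.3.1 and DESeq2, without their roles. Per the labels' protocols, a QuantSeq 3' kit (FWD) was used. For genome build, annotation and strand of counting, nothing is stated in the sources used here. TPM holds no counts, so no count test was made, and the precision that depth gives is unknown.

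A gene was kept where 3 or more libraries reached 1 TPM (14936 genes), and log2(TPM + 1) was tested with limma 3.58.1 (R 4.3.3, statmod 1.5.0): 1 mean per group, all 18 libraries, 12 residual and 4.16 prior degrees of freedom, a mean-variance trend, two-sided tests and Benjamini-Hochberg adjustment over all genes. Changes on the log2(TPM + 1) scale understate changes of low genes. The procedure was tested on simulated data. Members came from the request. Of each other list, up to 4 called members with the largest change at 1.25 µM were named, and the 2 largest where fewer than 2 were called. KIF9, KIF21A, KIF22, RBBP4, TFDP1, E2F7, DYNC1I2, DYNC1H1, TUBB, TUBB4B, PRC1, BIRC5 and ECT2 were named after their values were seen. The members and lists were chosen with earlier results of these data known. Coordinates are GENCODE release 29, and promoter windows, matched by symbol for 10 of 10 members, are RefSeq's. Protein sequences were not used here. Alternatives changed the pseudocount, filter, scaling, prior, library weights, replicate block, groups fitted and libraries left out. The counts of the other lists without untreated 24 h replicate 2, and the promoter stretch shown, were chosen after seeing the data.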

Additional observations from a re-analysis of the deposited data

How the results depend on the processing

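With 11 settings, and with each library left out in turn, the 9 members called at 1.25 µM and the 8 called at 48 h kept their direction. At 1.25 µM leaving out a library gave 7 to 9 members, fitting only the compared groups, with 6 libraries instead of 18, gave 1, and the other settings gave 9. For 0.63 against 1.25 µM that setting gave 0, and leaving out a library gave 0 to 5. At 48 h, leaving out a library gave 4 to 7, 6 were called with median-of-ratios scaling, quantile normalization or no filter, 7 with a pseudocount of 0.1 TPM or only the compared groups, and 9 with library weights. Median-of-ratios scaling moved the median of all genes at 48 h from -0.147 to 0, and the genes called lower and higher from 849 and 291 to 507 and 492 (550 and 497 with quantile normalization). For the difference between 48 h and 24 h, library weights gave 1 member. The cause of these moves was not tested. For most of these fits the number of all tested genes called is not given here. Without these numbers, a loss of member calls in those fits cannot be told from a general loss of calls. Small changes at 0.32 µM turned sign: with library weights KIF11 was at 0.032, KIF20B at 0.12, KIF23 at 0.073 and CENPE at 0.30, and with quantile normalization CENPE was at 0.0018. Leaving out a library at 0.32 µM, KIF11 ran from -0.082 to 0.029, KIF20B from -0.46 to 0.21, KIF23 from -0.38 to 0.21, KIF2C from -0.051 to 0.35, KIF15 from -0.60 to 0.0096 and CENPE from -0.27 to 0.44. At 0.63 µM for 24 h KIF2C ran from -0.11 to 0.29 and CENPE from -0.66 to 0.054. Over all tested genes, same-numbered libraries deviated together little (r from -0.0927 to 0.115), which does not exclude that the numbers pair them. Replicate 3 was lowest in its group for 8 members at 0.63 µM, 24 h (36.4% of tested genes). It was lowest for 10 at 1.25 µM (39.0%) and for 8 at 0.63 µM, 48 h (43.6%). In the untreated 24 h, 0.32 µM and untreated 48 h groups it was lowest for 5, 1 and 2 members (28.7%, 27.4% and 40.0%). With the replicate number as a block the counts were 9 at 1.25 µM, 8 at 48 h and 5 for 0.63 against 1.25 µM.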
